A study of Mus musculus with 4 samples.

Results

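The L1210 line that carries Fbxw11d was compared with the L1210 lines that carry Fbxw11a and Fbxw11c, 3 of the 4 lines of the series, on 34071 of the 55681 gene probes of an Agilent mouse array. These were the probes whose signal was well above background in each of the 3 lines, and 16641 of the 24561 gene symbols on the array were among them. L1210 is a mouse lymphocytic leukemia line (DBA subline 212) that grows in suspension. Stable lines were made by infection with lentivirus carrying an Fbxw11 variant and sorting of GFP+ cells, and all were grown in RPMI medium with serum. Fbxw11a is the full-length transcript, Fbxw11c lacks an exon that Fbxw11a has, and Fbxw11d lacks that exon and the next. The L1210-control line was not part of the comparison, and its values are given only for reference.

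Fbxw11, also called beta-TrCP2, is an F-box protein, the part of an SCF ubiquitin ligase that binds the phosphorylated substrate. Its best known substrates are the NF-κB inhibitor IκBα and β-catenin, so it can act on NF-κB and on β-catenin/TCF transcription in opposite directions. The 3 variants differ only near the start of the protein, before the repeats that hold the substrate. The comparison asks which transcripts set the shortest of the variants apart from the longer ones.

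Each line was measured on 1 array of 1 sorted population. Fbxw11a and Fbxw11c are different variants and not replicates, so no test was made, and the difference between them is given as a yardstick. The Fbxw11d array was the only one on its slide and the other 3 arrays shared a slide, so slide and variant cannot be told apart. The 75th percentile of the processed signal was 952 on the Fbxw11d array, against 628 for Fbxw11a and 672 for Fbxw11c. No spot of a gene was saturated. Of 16 B lineage markers, 9 were well above background in every line, among them Blnk, an adaptor of the B cell receptor, while Cd79b, Ebf1, Igll1, Il7r, Ms4a1, Rag1 and Rag2 were not. Of 16 T lineage markers, 11 to 13 were above background in a line, among them Cd3e and Cd4. The lines thus held markers of both lymphoid lineages in part, and so did the control. By the same rule 8 of 12 macrophage markers were above background in each of the 3 lines. So were 8 or 9 of 12 fibroblast and 5 or 6 of 8 erythroid markers. Detection thus did not set the lymphoid lineages apart.

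Levels below are the deposited normalized values on the log2 scale, and a difference is the level in Fbxw11d minus the mean of the other lines. A probe was called when Fbxw11d was at least 2-fold above both other lines or at least 2-fold below both. Fbxw11d was higher at 162 probes (0.475% of those compared) and lower at 383 (1.12%). Counted by gene, with the probe of highest level for each, 73 genes were higher (0.439%) and 153 were lower (0.919%). Of the called probes 29.7% were higher, but only 10.6% were when each array was scaled to its 75th percentile, which gave 73 higher (0.214%) and 614 lower (1.8%). Over all alternatives the share ranged from 4.29% with another background correction (normexp) to 54% with no filter on dim probes. Fbxw11a and Fbxw11c themselves differed by at least 2-fold at 448 probes in one direction and 421 in the other. On the same footing, against 1 line at a time, Fbxw11d was higher at 535 and lower at 930 probes than Fbxw11a, and higher at 367 and lower at 751 than Fbxw11c. Most called probes were dim, with a median signal of 49.9 for the higher and 74.6 for the lower ones. Among the 23387 probes with a mean signal of at least 100, 24 were higher and 142 lower. For these brighter probes the median absolute difference was 0.19 between Fbxw11d and Fbxw11a, 0.16 between Fbxw11d and Fbxw11c, and 0.12 between Fbxw11a and Fbxw11c.

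**Figure D1:**
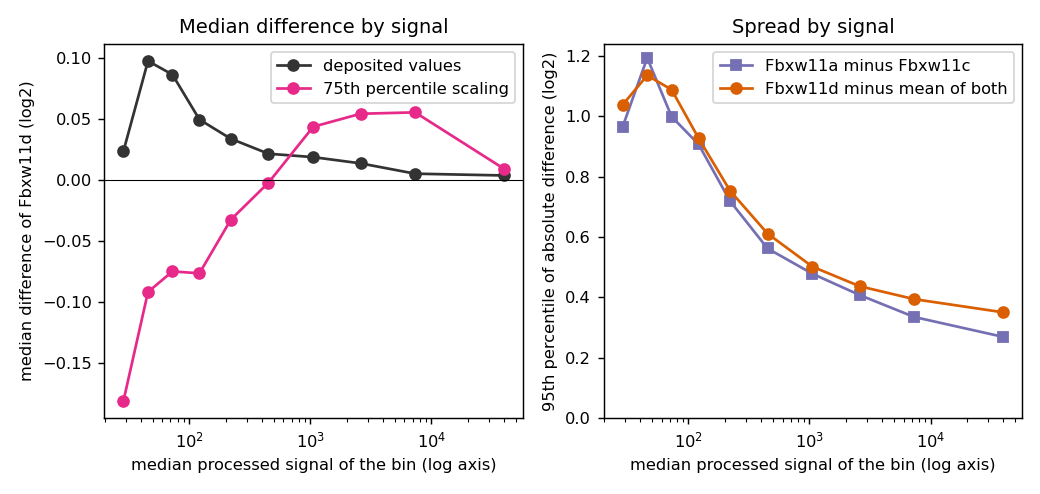
Median difference of Fbxw11d from the other lines (left, log2) and 95th percentile of the absolute difference (right, log2), in 10 bins of probes ordered by mean level and drawn at the median processed signal of each bin on a log axis. The left panel has 1 line for each scaling: in the dimmest bin the median was 0.02 with the deposited values and -0.18 with 75th percentile scaling, and in the brightest it was 0.00 and 0.01. In the right panel the spread of Fbxw11d from the other lines was 1.04 in the dimmest bin and 0.35 in the brightest, and that between Fbxw11a and Fbxw11c was 0.97 and 0.27. The first sets 1 array against the mean of 2 and the second sets 1 array against 1, so they are not like measures.

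A group of the called probes shared a sequence. Among the 142 brighter probes called lower, 13 held the same 10-base word, which only 18 of all 23387 brighter probes held, 9.15% against 0.077%. The word was picked from these calls after their values were seen, as the word most enriched among them, so the lower level of the probes that hold it is a description and not a test. Its letters are part of the B2 element, a short interspersed repeat of rodents that is transcribed by RNA polymerase III and is also found inside many messenger RNAs, where it can lie in either direction. Windows of 30 bases are shown for 5 probes with the word, written 5′ to 3′ with the word in capitals, to show that the letters around it are also alike while the transcripts are not related. The coordinates after each gene are those of its 60-base probe in mm9.
Stxbp2 (chr8:3643399-3643458, + strand): cagcaaacttggggctggtGAGATGGCTCa
Naip5 (chr13:100981843-100981902, - strand): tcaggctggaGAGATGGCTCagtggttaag
Apopt1 (chr12:112972189-112972248, + strand): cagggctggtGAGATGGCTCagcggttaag
Wdr34 (chr2:29887219-29887278, - strand): gagggctggtGAGATGGCTCagcgggtaag
Prorsd1 (chr11:29413200-29413259, - strand): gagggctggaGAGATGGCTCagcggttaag

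The reverse complement of the word was not used to choose it. Probes that hold it read transcripts with the repeat in the other direction, and 4 of them are shown in the same way.
Map6d1 (chr16:20233448-20233507, - strand): ctGAGCCATCTCtccagcccaaatttttaa
Dennd5b (chr6:148937450-148937509, - strand): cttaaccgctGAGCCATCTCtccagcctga
Thoc7 (chr14:14782952-14783011, - strand): cttaagtgctGAGCCATCTCtcaaaaccct
Sart1 (chr19:5377527-5377586, - strand): cactGAGCCATCTCttcagctcccctgccc

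Of all gene probes on the array, 28 (0.0503%) held the word and 13 (0.0233%) its reverse complement. Among the compared probes, the 24 with the word had a median difference of -1.13, with 19 below both other lines and 14 called lower, while 34.4% of all compared probes were below both. The 13 with the reverse complement went the other way, with a median difference of 0.79, 10 above both lines and 3 called higher, while 41.7% of all compared probes were above both. The median over all compared probes was 0.03. Between Fbxw11a and Fbxw11c the median difference was 0.16 for the word and -0.15 for its reverse complement. The control array lay 0.10 and 0.03 from the mean of Fbxw11a and Fbxw11c at these probes, so Fbxw11d stood apart from all 3 arrays of the other slide.

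The base after the word divided these probes further. In 19 of the 24 probes it was an A, as in the sequences shown, and these had a median difference of -1.29 with 13 called lower. The other 5, whose letters around the word differ from the rest, had a median of -0.49 with 1 called. Likewise the 8 probes with the reverse complement of the longer word were all above both lines, with a median of 0.84, and the 5 without the extra base had a median of 0.08. The split was not complete. Of the probes with the A, 1 was above both lines (0.29) and 2 lay between the lines (-0.09 and -0.08), and of the 5 reverse complement probes without the extra base 1 was called higher. Without the A, Pon2 and Gnmt differed by 0.13 and 0.50.

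Stxbp2, which takes part in granule release from blood cells, had a level of 9.29 in Fbxw11a, 9.09 in Fbxw11c and 7.02 in Fbxw11d, with the control at 9.29. Naip5, a sensor of bacterial flagellin, was at 15.08, 14.88 and 13.56 in the same order of lines. Apopt1, a mitochondrial protein, was at 14.20, 13.97 and 12.68. In each of these Fbxw11d was the lowest by more than the 2 other lines differed.

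Wdr34, a dynein chain, was at 15.23, 15.14 and 13.90, and Prorsd1, related to a tRNA synthetase editing domain, was at 15.71, 15.58 and 14.52. These probes were bright, so the differences were not at the edge of detection. With the reverse complement, Map6d1, a relative of a microtubule-stabilising protein, was at 13.93, 14.20 and 15.22, and Dennd5b, a Rab exchange factor, was at 14.22, 14.37 and 15.25. Thoc7, a subunit of the messenger RNA export complex THO, was at 9.50, 9.62 and 10.43 and the splicing factor gene Sart1 at 12.38, 12.49 and 13.24. Fbxw11d was the highest in each, although only Map6d1 of these 4 passed the 2-fold threshold.

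**Figure D2:**
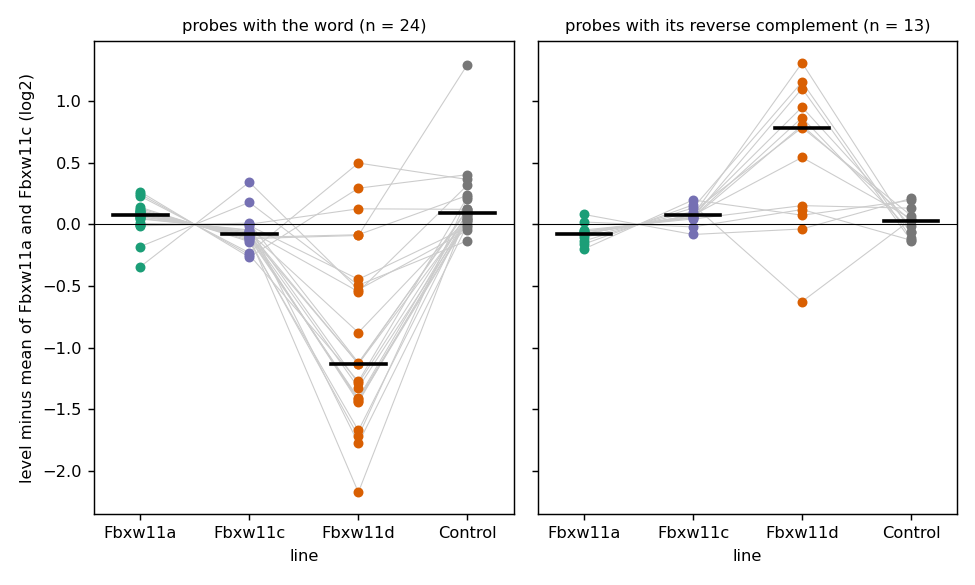
Level of each probe minus the mean of Fbxw11a and Fbxw11c (log2) in the 4 lines, for the 24 probes with the word (left) and the 13 with its reverse complement (right). Points are probes, grey lines join a probe and black bars are medians: Fbxw11d is at -1.13 on the left and 0.79 on the right, and the control at 0.10 and 0.03.

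Several genes had other probes that did not hold the word. A second Apopt1 probe was at 17.98 in Fbxw11a, 17.96 in Fbxw11c and 17.95 in Fbxw11d, a difference of -0.01 against -1.41. For Medag the difference was -0.05 against -1.13 at the probe with the word, and for Prorsd1 it was -0.10 against -1.13. The 2 other Thoc7 probes differed by 0.00 and -0.13, against 0.87 for the probe with the reverse complement. For Stxbp2 the second probe differed by -1.01 against -2.17. Pon2 and Uxt, whose word or reverse complement probes differed little (0.13 and 0.15), had other probes at 0.09 and -0.36 for Pon2 and at 0.10 for Uxt.

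The same held more widely. Over all called genes with another probe above background, the 59 other probes of 50 genes called lower had a median difference of -0.02 and 1 of them, the Stxbp2 probe, was also 2-fold lower on this measure. The 17 other probes of 12 genes called higher had a median of 0.28 and none was 2-fold higher. A call at 1 probe was thus seldom met at another probe of the gene, and the values below are for the probe and not for all transcripts of its gene.

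**Figure D3:**
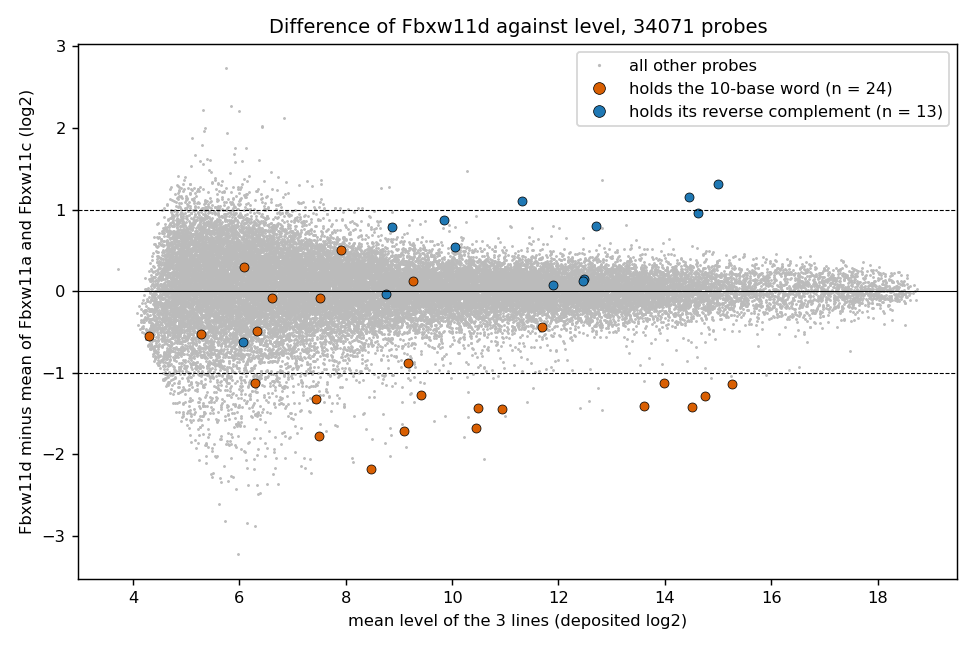
Difference of Fbxw11d from the mean of Fbxw11a and Fbxw11c (log2) against mean level (deposited log2) for the 34071 compared probes, with dashed lines at 2-fold. Orange points are the 24 probes with the 10-base word and blue points the 13 with its reverse complement. Of the lower calls with a mean signal of at least 1000, 8 of 22 are orange, and 3 of the 5 higher calls with a mean signal of at least 1000 are blue.

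Of the 22 lower calls with a mean signal of at least 1000, 8 held the word. The other bright calls came from genes of several kinds. Named here are the genes with the largest differences from the nearer line that had a mean signal of at least 100 and the same call with 75th percentile scaling, 6 higher and 11 lower.

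Slc6a13, a transporter of the inhibitory transmitter GABA, was at 5.54 in Fbxw11a, 6.73 in Fbxw11c and 8.25 in Fbxw11d, 4.35-fold over the mean of the others, which differed by 1.18 between themselves. Iqsec3, an Arf exchange factor of inhibitory synapses, was at 12.40, 12.34 and 13.73, or 2.56-fold higher. Their probes lie near each other on chromosome 6 (chr6:121287597-121287656 and chr6:121329853-121329912 in mm9). A second Iqsec3 probe was not well above background in any line.

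Tagln, an actin-binding protein of smooth muscle, was at 9.83, 9.77 and 11.27, or 2.77-fold higher in Fbxw11d. Mapk8, which encodes the stress kinase JNK1, was at 7.27, 6.88 and 8.44, and its 2 other probes differed by 0.77 and 0.58 in the same direction. Ifna7, a type I interferon, was at 6.33, 6.26 and 7.53. Fbxw11d stood above both lines in each, but Ifna7 belongs to a family of near-identical genes and the probe may read others. With normexp background correction Slc6a13 (1.19), Mapk8 (0.94) and Ifna7 (0.60) were not called, and neither was Mapk8 on the mean of its probes (0.90). Map6d1, given above, was the last of the 6.

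Among the lower genes, Olfr681, an olfactory receptor, was at 7.92, 7.99 and 5.79 and Fgf14, an intracellular relative of fibroblast growth factors, at 7.91, 7.88 and 5.85. Both were more than 4-fold lower in Fbxw11d, with Stxbp2 between them in rank. Fgf14 had 2 further probes and Olfr681 had 1, none of them above background in all 3 lines. Mdh1b, related to malate dehydrogenase, was at 9.50, 9.50 and 7.48, but the control array was at 8.06, nearer to Fbxw11d.

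Rs5-8s1, which stands for the 5.8S ribosomal RNA, was at 11.51, 11.07 and 9.23, or 4.16-fold lower. Zfp352, a zinc finger gene, was at 10.82, 10.82 and 9.03, while its dim second probe differed by 0.38. The probes of Zfp352 thus went in different directions, and their mean (-0.71) was not called.

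The remaining 5 lower genes differed by -1.65 to -1.50. They were Lhfpl5, needed for mechanotransduction in hair cells, the vomeronasal receptor Vmn1r195, the membrane carbonic anhydrase Car14, Fam13c, and the zinc finger gene Zfp940. In each the levels of Fbxw11a and Fbxw11c were within 0.22 of each other.

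**Figure D4:**
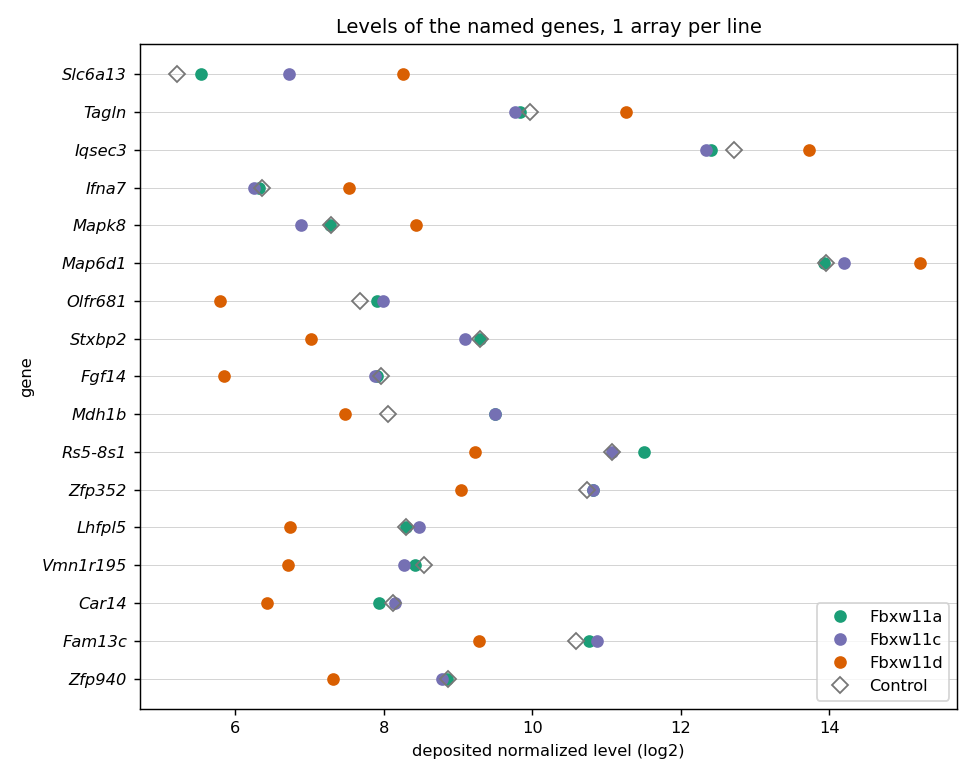
Deposited normalized level (log2) of the 17 named genes in each line, 1 array per line, with the control as an open diamond. In the upper 6 genes Fbxw11d lies to the right of every other point and in the lower 11 to the left; for Mdh1b the control (8.06) lies nearer to Fbxw11d (7.48) than to Fbxw11a and Fbxw11c (9.50).

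Replication-dependent histones package newly made DNA, and their messenger RNAs end in a stem-loop and not in a poly(A) tail. Of 35 measured genes, 28 were below both other lines in Fbxw11d and 3 above both, with a median difference of -0.39. Over all genes 33.8% were below both and the median was 0.03. Only 2 passed the 2-fold threshold, both lower, where 0.919% of all genes were called lower, and neither was called with median centring (-0.998 and -0.906). Hist2h2bb was also not called on the mean of its probes (-0.75), nor Hist1h1e with normexp (-1.03). Hist2h2bb was at 11.99, 11.83 and 10.73 and the linker histone Hist1h1e at 14.05, 13.89 and 12.87. Hist1h2ab, at 16.27, 16.20 and 15.21, and Hist2h4, at 16.73, 16.60 and 15.69, were short of the threshold against Fbxw11c.

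Counted by probe, 4 of 49 probes of these gene clusters were called, all lower, the lowest at -1.92, where 1.12% of all compared probes were called lower and 34.4% were below both lines. By kind of histone, the 14 probes of H4 genes had a median difference of -0.79 with 12 below both lines. The median was -0.53 for the 5 probes of H1 genes, -0.27 for the 10 of H2B, -0.18 for the 7 of H3 and -0.03 for the 13 of H2A. The H2A probes had a median signal of 319609, in the brightest of the 10 bins by level. H4 genes are nearly identical in sequence, so their probes may read each other and are not separate observations. The 21 probes of the H2af, H3f3 and H1f genes, most of which have polyadenylated transcripts, had a median of 0.07, with 1 called lower at -1.38. Terc, the RNA of telomerase, which also has no poly(A) tail, was at 7.95, 8.08 and 6.88. Terc was called lower, as was Rs5-8s1, given above, which was also listed as having no poly(A) tail. The rest of that list was not called. Rmrp differed by -0.13, Snora74a by -0.17, Malat1 by -0.14, Snora47 by 0.26 and Neat1 by 0.05. A missing tail thus did not go with a lower level throughout.

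Of 29 mitosis genes, 20 were above both other lines and none below both, with a median difference of 0.17, against 41.7% of all genes above both. None passed the 2-fold threshold. Cenpf, a kinetochore protein, was at 7.17, 7.79 and 7.98, the checkpoint kinase gene Bub1b at 12.27, 12.49 and 12.77, and cyclin A2 (Ccna2) at 14.80, 14.94 and 15.22. The levels in Fbxw11c were already above those in Fbxw11a by a median of 0.22, so the median against Fbxw11c alone was 0.06 and that against Fbxw11a alone was 0.24.

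**Figure D5:**
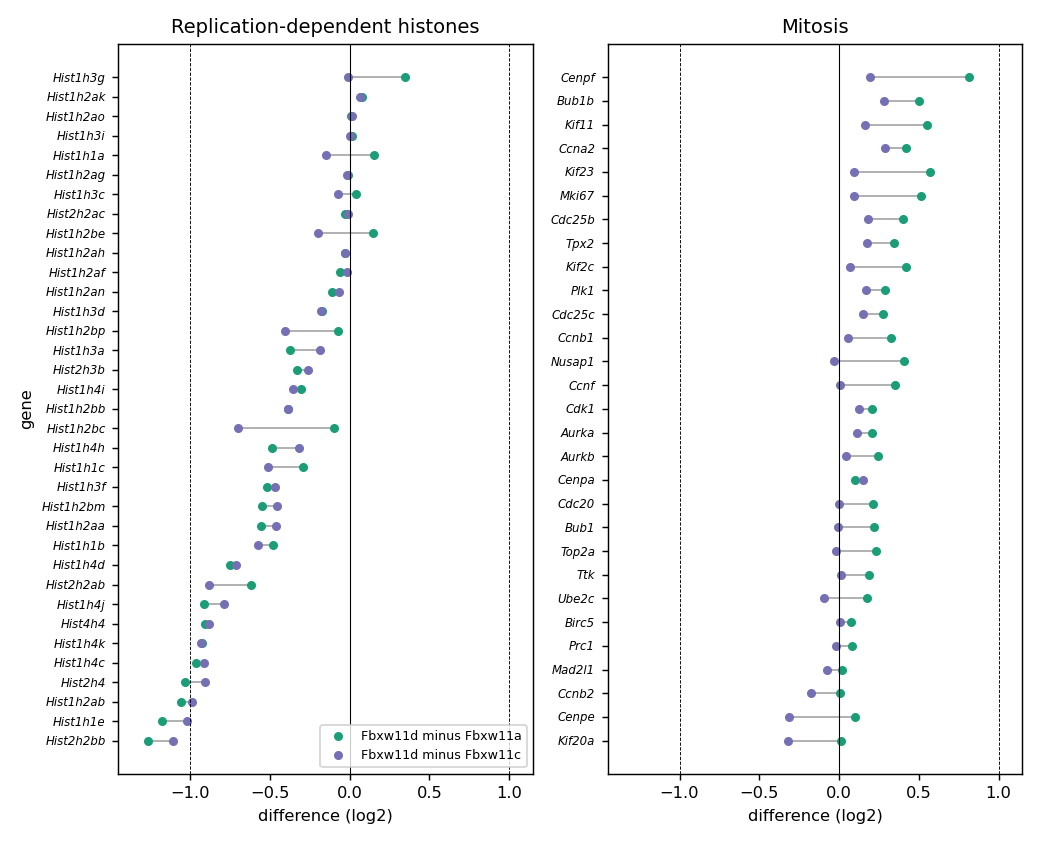
Difference (log2) of Fbxw11d from Fbxw11a (green) and from Fbxw11c (purple) for each measured gene of the replication-dependent histone list (left, n = 35) and of the mitosis list (right, n = 29), with dashed lines at 2-fold. Most histones lie left of 0, down to Hist2h2bb at a mean of -1.19, and most mitosis genes right of 0, up to Cenpf at 0.51.

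In the pathways downstream of Fbxw11 no gene was called, where 0.439% of all genes were called higher and 0.919% lower, so lists of this size would hold few calls in any case. The 24 NF-κB targets had a median difference of 0.01 (from -0.26 to 0.55, 11 above both lines and 6 below both), and the 17 β-catenin/TCF targets had 0.01 (from -0.44 to 0.75). Nfkbia, which encodes IκBα, was at 14.53, 14.73 and 14.83, and Myc at 13.58, 13.68 and 13.41. None of 24 genes of the SCF ligase and its substrates was called, with β-catenin (Ctnnb1) at 13.43, 13.48 and 13.74. Fbxw11 itself was at 14.21, 14.13 and 13.86 at its brighter probe, with the control at 13.92, and differed by -0.07 at its other probe. The probes start at bases 3803 and 3692 of the listed transcript, and whether the introduced constructs hold that region was not stated in the sources used here, so the probes do not check the labels. The paper reports that RT-PCR and western blotting verified the high expression of the variants.

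In the other proliferation, stress and metabolism lists no gene was called, where 0.439% of all genes were called higher and 0.919% lower, and calls were fewest among bright probes. These were 20 G1 cyclins and inhibitors, 30 DNA replication genes, 24 immediate early genes, 23 p53 targets, 31 ATF4 and amino acid stress genes, 27 chaperones, 26 NRF2 genes, 31 glycolysis and hypoxia genes, 24 cholesterol synthesis genes, 64 oxidative phosphorylation genes, 77 ribosomal proteins and 36 proteasome subunits, with medians from -0.07 to 0.09. The cyclin gene Ccnd2 was at 4.38, 7.26 and 4.06, so that Fbxw11c stood apart and not Fbxw11d.

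Among immune genes, 2 of 30 cytokines, chemokines and their receptors were called higher (0.439% of all genes were) and 2 of 26 interferon response genes lower (0.919%). Il10ra, a chain of the interleukin 10 receptor, was at 4.76, 4.82 and 6.35 and Il16, a chemoattractant of T cells, at 6.16, 6.11 and 7.31. The antiviral synthetase genes Oas1a, at 6.21, 6.02 and 4.54, and Oas2, at 6.12, 6.09 and 5.02, were lower. The 4 probes were dim, with signals of 24.4 to 188 on the 3 arrays, and none was called after another background correction (normexp), nor was Il16 with 75th percentile scaling. None of 19 antigen presentation genes or 27 adhesion and surface genes was called.

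In the lists of other cell types, none of 12 T lineage, 8 macrophage, 8 fibroblast, 5 erythroid and 24 haematopoietic transcription factor genes was called, where 0.439% of all genes were called higher and 0.919% lower, so lists of these sizes would hold few calls in any case. Zap70, a kinase of the T cell receptor, differed by 0.87 at the probe used and was called lower at its other, equally dim probe (-1.36). Csf1r, the receptor of macrophage colony-stimulating factor, was at 10.39, 10.26 and 9.26, which just missed the threshold against Fbxw11c. It was the only one of the 8 macrophage genes below both lines, 5 were above both, among them Emr1 (0.81), Mpeg1 (0.68) and Marco (0.57), and the list's median was 0.13. Another Emr1 probe was above background only in Fbxw11d, at least 7.51-fold higher, with signals of 3.26, 3.54 and 156.

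Outside the compared probes, 2174 of the 55681 gene probes were above background only in Fbxw11d and 383 only in both Fbxw11a and Fbxw11c. The first count needs 1 line and the second needs 2, so they are not like counts. The Fbxw11d array was also the brightest, with 68.7% of probes above background, against 66.0% for Fbxw11a and 64.3% for Fbxw11c. The part of array brightness in these counts was not tested. Of the first group 92 had a bound of at least 2-fold, and of the second 249. The bound sets the brighter line against the lowest signal above background, or the dim probe's own signal where that was higher, after 75th percentile scaling. Cryba1, a lens crystallin, had the largest bound, at least 21.8-fold higher in Fbxw11d, with signals of 15.3, 13.8 and 468. Dppa3, a germ cell gene, was at least 11.9-fold lower, with signals of 125, 134 and 8.38, and its control signal of 4.22 was like that of Fbxw11d.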

How the data were processed

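RNA of 4 L1210 lines was hybridised singly to Agilent 1-colour mouse arrays. The deposited scanner output holds a processed intensity per spot and flags (other columns) for outliers and signal well above background. The authors also deposited a table of log2 normalized values, which follow nearly the same distribution on the 4 arrays; the method is not given in the sources used here. The submitters' processing notes name Agilent Feature Extraction 9.1, and the file headers 10.7.1.1. Control spots and the 102 to 167 outlier spots of an array were dropped before replicate spots were averaged by probe. Detection of a probe required the well-above-background flag on a share of 0.5 or more of its spots.

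The main values were the deposited log2 values. Processed intensities minus the 75th percentile of each array were repeated throughout. Gene lists were written from general knowledge. The probes compared, lists and rules were chosen with earlier results of these data known. Named were up to 12 genes per direction by the difference from the nearer line (clone and predicted names left out, mean signal of at least 100, same call after 75th percentile scaling), Fbxw11, called list members and list examples, except some items that are not reported here. Second probes, genes of probes with the word, and Csf1r, Emr1, Mpeg1, Marco, Zap70, Ccnd2, Terc, the other noncoding RNAs, Cryba1 and Dppa3 were named after their values were seen. The word was the 10-base word most enriched in lower calls over brighter probes, among the 3 words that at least 5% of those calls held. The call rule was tried on simulated data, which does not show how often it errs on these arrays. With 1 array per line, precision is limited by the number of arrays. Alternatives used limma 3.58.1 in R 4.3.3, and the rest Python 3.11.15.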

Additional observations from a re-analysis of the deposited data

How the results depend on the processing

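No paired analysis was possible because each line has 1 array. Of the 162 higher and 383 lower probes, the counts became 73 and 614 with 75th percentile scaling, 71 and 619 with flagged spots kept, 7 and 156 with normexp, 1458 and 1242 with no filter on dim probes, 24 and 142 with a mean signal of at least 100, 1097 and 1343 at 1.5-fold, 15 and 65 at 3-fold, and 274 and 695 against the mean of both lines; cyclic loess gave 87 and 548. Against 1 line alone, 367 to 535 were higher and 751 to 930 lower. With normexp 7 of the 162 and 152 of the 383 calls were shared. The median for the word was -1.20 with 75th percentile scaling, -1.03 with median centring, -1.21 with cyclic loess and with flagged spots kept, and -1.20 and -1.06 against 1 line alone. That for its reverse complement ranged from 0.61 to 0.97. Median centring moved the median of all compared probes to 0.17, and with it the histone median was -0.27 and the mitosis median 0.40. The histone and mitosis medians kept their sign under every alternative. Of 216 list medians under an alternative, 30 had another sign, in 14 lists whose medians were at most 0.13 in size. For the named genes that were called, 192 of the values under an alternative kept the call, and 15 kept the direction but not the call, chiefly with normexp and for dim probes. The causes were not tested.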

Other observations

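The control array, which shared the slide of Fbxw11a and Fbxw11c, gave a reference for each call. At 288 of the 383 lower probes it lay at most 25% of the way from the mean of Fbxw11a and Fbxw11c to Fbxw11d. At 70 it lay between, and at 25 it lay 75% or more of the way. For the 162 higher probes these counts were 83, 71 and 8. The first class also holds controls on the far side of the mean from Fbxw11d, as for Slc6a13 (control -0.92, Fbxw11d 2.12). It is thus not a count of controls near the mean. Of the 383 lower calls 163 and of the 162 higher calls 69 were at probes for long intergenic transcripts. Such probes made up 8418 of the 34071 compared probes. Over all compared probes 1.12% were called lower and 0.475% higher. Most called probes were dim, and the part of signal level in these counts was not tested.

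The 9 E1A spike-in probes above background, which read control RNA added by the array protocol, had a mean difference of -0.14 ± 0.17 (SD over probes) before any scaling, while the median of the compared probes was 0.55. After the authors' normalization the spike-ins were at -0.64 ± 0.25. The gene signal of the Fbxw11d array was thus higher relative to the spike-ins, and every difference given here is relative to the other genes of the array.

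The mean GC content was 43.7% in the compared probes, 44.6% in the higher and 46% in the lower ones, and its part in the calls was not tested.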
